A study of Mus musculus with 5 samples.

Results

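The transcripts of 10 genes with roles in meiosis were followed in mouse embryos at the 2-cell stage, when the oocyte's store of RNA is being replaced by RNA from the embryo's own genome. The genes were Rec8, Smc1b and Stag3 of the meiotic cohesin, Sycp1, Sycp3 and Hormad1 of the paired chromosome axes, and Dmc1, Msh4, Msh5 and Rnf212 of recombination and crossing over. They were picked by symbol, and all 10 were found among the 32285 symbols of the deposited table. The set was put together with results of these libraries in view, and Rnf212 was already known as a gene with a large difference between the groups. Differences between the groups are therefore given for these genes as a description, with intervals but without p-values.

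The 5 libraries came from embryos fertilised in vitro, with oocytes from superovulated females of 6 to 9 weeks and sperm from males of 12 to 16 weeks, of a strain not given in the sources used here. Zygotes with 2 pronuclei, taken after about 6 h with sperm, were cultured for 24 h in KSOM medium. Control libraries (n = 2) had the solvent DMSO in the medium, and exposed libraries (n = 3) had 25 nM PNMC, an abbreviation that the labels do not spell out. The labels do not say how many embryos a library held or whether libraries came from separate cultures, so the spread between libraries may be technical.

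In meiosis, a cohesin ring with germline subunits holds sister chromatids together and forms the base of the chromosome axis. The synaptonemal complex then joins homologous chromosomes along their length, programmed breaks are repaired on the homologue by strand exchange, and a few of these repair sites mature into crossovers. In female mice synapsis and recombination take place largely before birth, and the oocyte then waits in arrest. Whether any transcript seen here dates from those steps was not tested. A table of steady levels cannot separate transcripts left from the oocyte from those newly made by the embryo, so the word residual was not tested here. In bulk samples, fewer cells with a transcript and less of it per cell cannot be told apart either.

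All 10 oocyte and 2-cell markers were at 1 or more in every library, with summed values from 8814 to 9309 in controls and from 9011 to 9505 after PNMC. Of 10 cumulus and granulosa markers, 3 were listed at 0 everywhere (Amh, Foxl2, Ptx3), and the sums ran from 5.53 to 6.97 in controls and from 4.26 to 6.93 after PNMC. Only Cyp19a1 of that list was at 1 or more in every library (2.46 to 4.03), and Tnfaip6 ranged from 0.106 to 2.62. Of 10 sperm and spermatid markers, Prm1, Smcp and Tnp2 were listed at 0 everywhere, and the sums ran from 4.85 to 7.72 and from 5.19 to 8.93, with Prm2 the largest part in each library. Of 10 blood markers, Cd3e, Hbb-bt and Tyrobp were listed at 0 everywhere, and the sums ran from 10.9 to 15.9 in controls and from 7.15 to 10.2 after PNMC. Control library 2 listed 18595 genes above 0, against 17408 to 17635 in the other libraries.

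The promoters are shown first because the promoter letters played no part in the choice of the genes. The motifs were chosen with earlier results of these data known, so their shares are a description. Many germline genes carry an E-box, bound by MAX and its partner MGA, or an E2F-type site near their start, and a Polycomb complex with MGA and E2F6 is known to keep such genes silent in pluripotent cells. RefSeq gives a promoter for all 10 genes, on the build GRCm38.p6. That is another build than the GRCm39 named in the submitters' processing notes, so the positions hold for the RefSeq table only. The window runs from 250 bases before the annotated start to 50 bases from the start on, and for Hormad1, which has 2 nearby starts, the first entry was used. Control and PNMC values did not overlap in 4 of the 10 genes, all 4 among the 8 that were tested, and in 19.9% of all genes tested. The 5 printed here are those 4 and Sycp3, which had the highest mean of the set. Each is the 250 bases before the start, 5′ to 3′ on the gene's strand, with matches to the E-box CACGTG or the E2F-type octamer GGCGGGAA in capitals. They lie at chr5:108775028-108775277 (minus strand), chr3:95559427-95559676 (plus), chr17:35046623-35046872 (minus), chr15:85131958-85132207 (minus) and chr10:88459337-88459586 (plus).
Rnf212: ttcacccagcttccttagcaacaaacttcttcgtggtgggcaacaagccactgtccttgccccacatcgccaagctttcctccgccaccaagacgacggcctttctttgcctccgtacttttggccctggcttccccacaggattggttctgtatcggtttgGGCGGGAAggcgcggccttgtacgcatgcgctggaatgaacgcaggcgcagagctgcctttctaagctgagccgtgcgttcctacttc
Hormad1: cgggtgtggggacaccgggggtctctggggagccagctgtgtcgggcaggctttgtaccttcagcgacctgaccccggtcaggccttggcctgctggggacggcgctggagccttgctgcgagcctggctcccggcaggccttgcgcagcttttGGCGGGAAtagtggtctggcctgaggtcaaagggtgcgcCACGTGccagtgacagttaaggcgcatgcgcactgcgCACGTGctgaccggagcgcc
Msh5: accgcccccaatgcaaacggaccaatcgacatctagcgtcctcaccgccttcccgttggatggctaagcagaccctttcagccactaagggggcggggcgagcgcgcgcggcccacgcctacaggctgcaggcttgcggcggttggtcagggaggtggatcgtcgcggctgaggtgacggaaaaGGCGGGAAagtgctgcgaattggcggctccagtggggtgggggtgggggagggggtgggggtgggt
Smc1b: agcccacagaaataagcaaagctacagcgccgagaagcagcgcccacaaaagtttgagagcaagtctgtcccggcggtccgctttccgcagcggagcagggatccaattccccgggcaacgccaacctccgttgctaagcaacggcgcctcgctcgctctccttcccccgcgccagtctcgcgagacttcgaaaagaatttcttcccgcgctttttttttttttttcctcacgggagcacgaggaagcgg
Sycp3: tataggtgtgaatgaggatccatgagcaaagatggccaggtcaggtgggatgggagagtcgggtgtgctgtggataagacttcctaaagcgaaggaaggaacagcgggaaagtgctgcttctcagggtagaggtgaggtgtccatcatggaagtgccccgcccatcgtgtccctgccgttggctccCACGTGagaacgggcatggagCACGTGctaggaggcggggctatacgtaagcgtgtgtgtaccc

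Both strands were searched over all 300 bases, and the hexamer reads the same on both. CACGTG was present in 5 of the 10 promoters (Rnf212, Stag3, Sycp1, Sycp3 and Hormad1), against 7.24% of the 27025 promoters in the table. Hormad1 and Sycp3 each held 2 copies. In Rnf212 the copy began 28 bases past the start and so lies outside the printed stretch. GGCGGGAA or its reverse complement was present in 3 promoters (Rnf212, Hormad1 and Msh5), against 2.24% of all. Rnf212 and Hormad1 held both motifs, as did 0.222% of all promoters.

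The promoters of the set were also rich in the dinucleotide CpG. The ratio of observed to expected CpG ran from 0.436 in Msh4 to 1.08 in Smc1b, with a median of 0.774, against a median of 0.389 over all promoters. It was at least 0.6 in 8 of the 10, a level reached by 36.5% of all promoters. Among all promoters at or above that level, 11.4% held CACGTG and 4.89% held GGCGGGAA. Among 43 other genes of 7 meiosis lists with a promoter in the table, 14.0% held CACGTG and 9.30% held GGCGGGAA. Of 9 related or somatic paralogs, none held CACGTG and 1 held GGCGGGAA. Smc1b, Msh4, Dmc1 and Rec8 held neither motif in this window, which says only that these letters are absent there. The plot of motif matches by position shows where the copies lie.

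**Figure D1:**
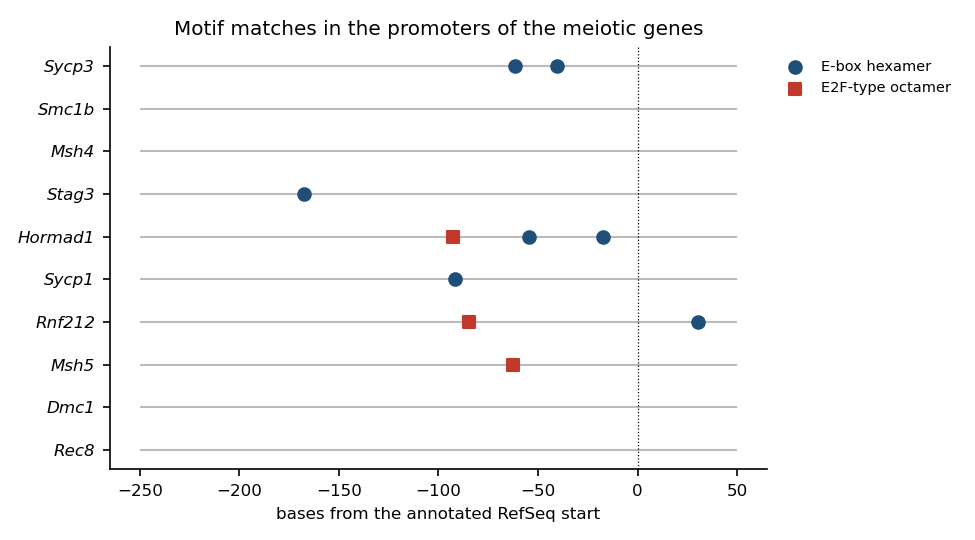
Positions of CACGTG (circles) and GGCGGGAA (squares, either strand) in the 300-base promoter window of each of the 10 genes. The x axis is the distance in bases from the annotated RefSeq start, and each grey line is 1 gene. All matches but that of Rnf212 at 28 bases lie before the start, and 4 genes have none.

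Expression was given as normalised levels of unknown unit and unknown read depth. It is not known whether they are scaled by gene length. The order of the genes below is therefore an order of deposited values and not of transcript numbers. Of the 10 genes, 9 were above 0 in all 5 libraries, and 6 were at 1 or more in all 5. The sum over the 10 was 82.7 and 95.4 in the controls and 98.3, 107 and 106 after PNMC, and without Sycp3 and Smc1b it was 31.6, 33.9, 36.6, 36.3 and 31.4. Without Rnf212 alone, the sum was 81.1 and 95.1 in the controls and 92.7, 102 and 100.4 after PNMC. The sum of all 10 was higher in each PNMC library than in either control, while both of the smaller sums overlapped between the groups.

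Sycp3 and Smc1b stood apart at the top, with means over the 5 libraries of 33.7 and 30.2, above 89.5% and 88.5% of the genes with a mean above 0. Msh4 (mean 8.87), Stag3 (7.25), Hormad1 (6.70), Sycp1 (4.86) and Rnf212 (3.65) followed, then Msh5 (1.80), Dmc1 (0.719) and Rec8 (0.123). Between Smc1b and Msh4 the 5-library ranges did not meet, since the lowest Smc1b value was 25.8 and the highest Msh4 value 10.9. All 8 other neighbouring pairs in that order had overlapping ranges.

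**Figure D2:**
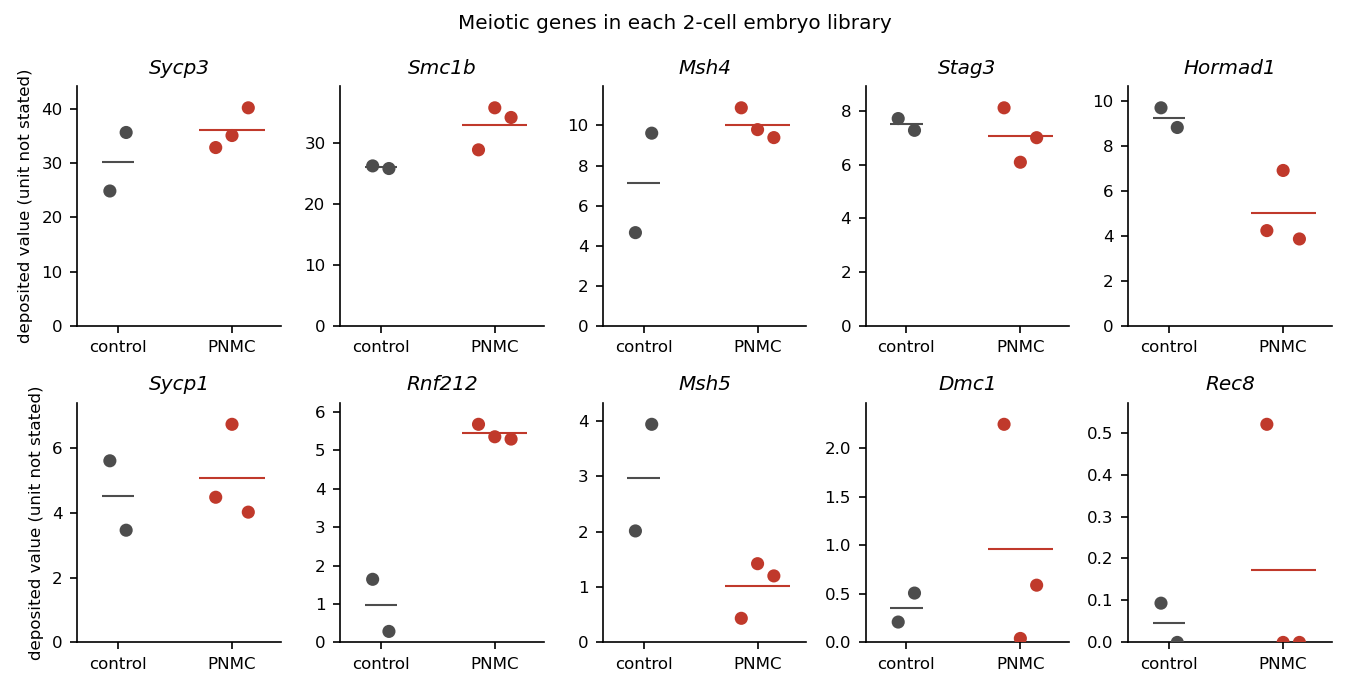
Deposited value of each gene in each library, with control libraries in grey, PNMC libraries in red and group means as lines. Each panel has its own linear axis starting at 0, and libraries run from 1 to 2 and from 1 to 3 from left to right. Rnf212 and Smc1b have all PNMC points above both controls, and Hormad1 and Msh5 have all of them below.

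Of the cohesin genes, Smc1b and Stag3 were present and Rec8 was near the floor of the table. Smc1b, the germline form of the core subunit SMC1, was at 26.3 and 25.8 in control libraries 1 and 2 and at 28.9, 35.8 and 34.2 in PNMC libraries 1, 2 and 3. All 3 PNMC values lay above both controls, and PNMC library 1 was the closest to them. The difference was 0.32 on the log2(value + 1) scale, PNMC minus control, with a 95% interval from -0.09 to 0.73 that includes 0. Stag3, the germline form of the STAG subunit, was at 7.72 and 7.28 in controls and at 8.12, 6.09 and 7.01 after PNMC. The groups overlapped, and the difference was -0.08 (95% interval -0.66 to 0.50).

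Rec8, the cleavable kleisin that closes the meiotic ring, was listed at 0.0935 in control library 1, at 0.520 in PNMC library 1 and at 0 in the other 3 libraries. It stayed under the filter used for testing, which kept genes that reached 1 in 2 or more libraries. Rad21, its mitotic counterpart, ranged from 37.9 to 48.7, and the other germline kleisin Rad21l from 0 to 0.777. The general subunits Smc1a and Smc3 ranged from 12.8 to 17.0 and from 12.1 to 13.4. Stag1 ranged from 8.67 to 12.0 and Stag2 from 5.63 to 8.55. In none of these mitotic subunits did all PNMC values fall on the same side of both controls.

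Of the axis and synapsis genes, Sycp3 and Sycp1 overlapped between the groups and Hormad1 did not. Sycp3, which coats the chromosome axis, was at 24.8 and 35.6 in controls and at 32.8, 35.1 and 40.2 after PNMC. Control library 1 was the lowest, while control library 2 lay within the PNMC values, and the difference was 0.26 (95% interval -0.18 to 0.70). It was 0.01 without control library 1 and 0.51 without control library 2, with intervals that include 0. In GENCODE release M21 an exon of Sycp3 overlaps one of Chpt1 on the opposite strand, and these libraries keep no strand information. Chpt1 was listed at 0.657 and 3.86 in controls and at 1.28, 2.11 and 1.72 after PNMC. Of the 10 genes, 8 had no such overlap, and Gm24395, which overlaps Msh4, was not analysed here.

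Sycp1, the zipper protein of the synaptonemal complex, was at 5.61 and 3.47 in controls and at 4.48, 6.74 and 4.02 after PNMC. Its groups overlapped, with a difference of 0.14 (95% interval -0.57 to 0.85) that was -0.15 without control library 2 and -0.05 without PNMC library 2. Hormad1, a HORMA-domain protein that marks unpaired axes, was at 9.69 and 8.82 in controls and at 4.24, 6.91 and 3.86 after PNMC. All 3 PNMC values lay below both controls, with PNMC library 2 the nearest. Controls averaged 9.26 ± 0.618 (SD, n = 2) and PNMC libraries 5.00 ± 1.66 (SD, n = 3), a difference of -0.81 (95% interval -1.46 to -0.15). The interval included 0 when either control, PNMC library 1 or PNMC library 3 was left out. Its relative Hormad2 ranged from 0.284 to 1.51, and Sycp2, the partner of SYCP3 on the axis, from 5.92 to 8.14, both with overlapping groups.

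Of the recombination genes, Rnf212 was the one known beforehand for its difference. Rnf212, a RING-finger protein that stabilises recombination factors at future crossover sites, was at 1.64 and 0.287 in control libraries 1 and 2 and at 5.68, 5.36 and 5.30 in the PNMC libraries. The 3 PNMC values lay close together and above both controls, which differed from each other by more than the PNMC values did. Controls averaged 0.965 ± 0.960 (SD, n = 2) and PNMC libraries 5.44 ± 0.207 (SD, n = 3), a ratio of means of 5.64. On the log2(value + 1) scale the difference was 1.80 (SE 0.375, 95% interval 1.00 to 2.61). It was 1.28 without control library 2 and 2.32 without control library 1, and with a pseudocount of 0.1 it was 2.75. Rnf212 passed the filter through the PNMC libraries, since only 1 control was at 1 or more, so a large difference went with its entry into the test. Its relative Rnf212b ranged from 0 to 0.843.

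Msh4 and Msh5 form a clamp on recombination intermediates, and their group means differed in opposite directions. Msh4 was at 4.65 and 9.61 in controls and at 10.9, 9.79 and 9.39 after PNMC. Control library 1 stood below the other 4 libraries, and the difference was 0.51 (95% interval -0.14 to 1.15), or 0.05 without that library. Without control library 2 it was 0.96 (95% interval 0.25 to 1.68). Msh5 was at 2.01 and 3.94 in controls and at 0.435, 1.42 and 1.20 after PNMC. All 3 PNMC values lay below both controls, and the difference was -0.97 (95% interval -1.86 to -0.08), which included 0 without control library 2 (-0.61) and without PNMC library 1 (-0.74). With a pseudocount of 0.1 it was -1.52. The mismatch repair relatives Msh3 and Msh6 ranged from 22.9 to 31.8 and from 15.5 to 25.2, with overlapping groups.

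Dmc1, the meiosis-specific strand exchange recombinase, was at 0.210 and 0.508 in controls and at 2.25, 0.0409 and 0.589 after PNMC. Only PNMC library 1 reached 1, and the gene was not tested.

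**Figure D3:**
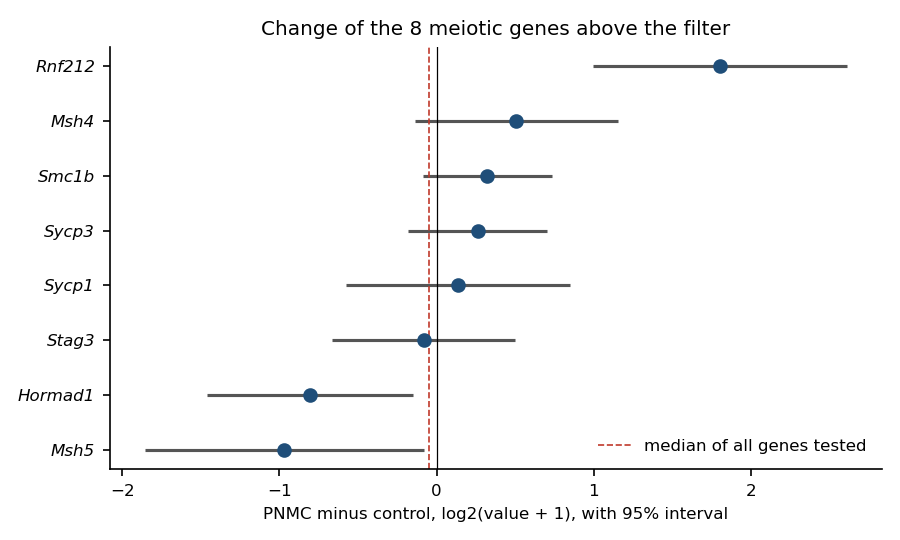
Difference between PNMC and control libraries for the 8 genes that passed the filter, on the log2(value + 1) scale, with limma's 95% intervals as bars. The intervals of Rnf212, Hormad1 and Msh5 lie off 0, as do those of 4.99% of all genes tested. The set was chosen with this contrast known, so nothing is read from that. The dashed line marks the median of all genes tested, -0.05.

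These differences were read against the whole table. With limma, 0 of the 12734 genes tested passed an adjusted p under 0.05, or 0%, so none of the 8 tested members did, and the lowest adjusted p of any gene was 0.172. Before adjustment, limma's p was under 0.05 for 636 genes, or 4.99%, with 1.73% higher and 3.27% lower after PNMC. That split moved with the scaling and with control library 2. Of the genes at that threshold 34.6% were higher, against 50.6% after quantile normalisation, 57.6% after median scaling and 53.5% without control library 2. Rnf212 was among the higher genes there, and Hormad1 and Msh5 among the lower. Since the choice of the set drew on this contrast, nothing is read from that count. All PNMC values lay above both controls in 2 of the 8 tested members and below both in 2, and nothing is read from these counts either. The shares over all genes tested were 7.97% and 11.9%. The group means were higher after PNMC in 7 of the 10 genes and lower in 3. Those 7 include Dmc1 and Rec8, which were not tested and had their highest value in PNMC library 1. Over all genes tested, 5487 differences were positive and 7247 negative. The median interval was 1.74 wide on the log2(value + 1) scale for genes with a mean under 5, 1.20 from 5 to 20 and 0.809 at 20 or more. A difference of the size seen in Sycp3 was not detectable at the median width of any of these 3 ranges. The summed blood markers given above did not overlap between the groups either. Hba-a1 was the largest part of that sum in each library, and Hba-a1, Hba-a2 and Cd52 each overlapped between the groups. Among single tested markers of the other lists, Prm2, Dppa3 and Zp3 did not overlap between the groups, and the rest did. Prm2 was at 3.91 and 4.02 in controls and at 5.19, 5.79 and 4.54 after PNMC. Dppa3 was also higher in every PNMC library. Zp3 was lower, at 38.5 and 41.9 in controls and at 35.8, 33.4 and 25.2 after PNMC. The part of these or of the blood markers in the differences of Rnf212, Smc1b, Hormad1 and Msh5 was not tested.

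Genes with a profile like that of Sycp3, the highest member, or of Rnf212 were looked for among all genes tested. Likeness was the largest difference in log2(value + 1) over the 5 libraries, so that it took in both level and pattern. Of the 12733 other genes tested, 316 came within 0.5 of Sycp3 in every library. Among the nearest were Nsmce1 (largest difference 0.10), Ms4a1 (0.17), Tspan14 (0.19) and 1110059E24Rik (0.19). No gene came within 0.5 of Rnf212, and since Rnf212 was known beforehand for its difference, nothing is read from that. The nearest was Cd68 (0.53), at 2.23 and 0.852 in controls and at 4.52, 3.92 and 3.83 after PNMC. Ccl11 (0.55), Kcnq1 (0.77), Tmem116 (0.77) and Col6a6 (0.80) came next.

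Other genes of the meiosis lists put the 10 in context. A place on a list does not mean that a gene acts only in meiosis. The 7 lists, grouped by role, held 56 genes outside the set, of which 55 were found, 6 of them under another symbol. Of the 55, 26 had a mean of at least 5, 26 a mean between 0 and 5, and 3 were listed at 0 everywhere (Rbm46, Spo11 and Syce3). Of the 41 that were tested, 0 passed limma's adjusted threshold, 0 were higher and 2 lower at an unadjusted p under 0.05 (Mus81 and Sun1), and 16 had a positive and 25 a negative difference. Over all genes tested, 5487 differences were positive and 7247 negative. The median difference of the 41 was -0.05, as it was over all genes tested. All PNMC values lay above both controls in 3 and below both in 3 of the 41, or 14.6%, against 19.9% of all genes tested.

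**Figure D4:**
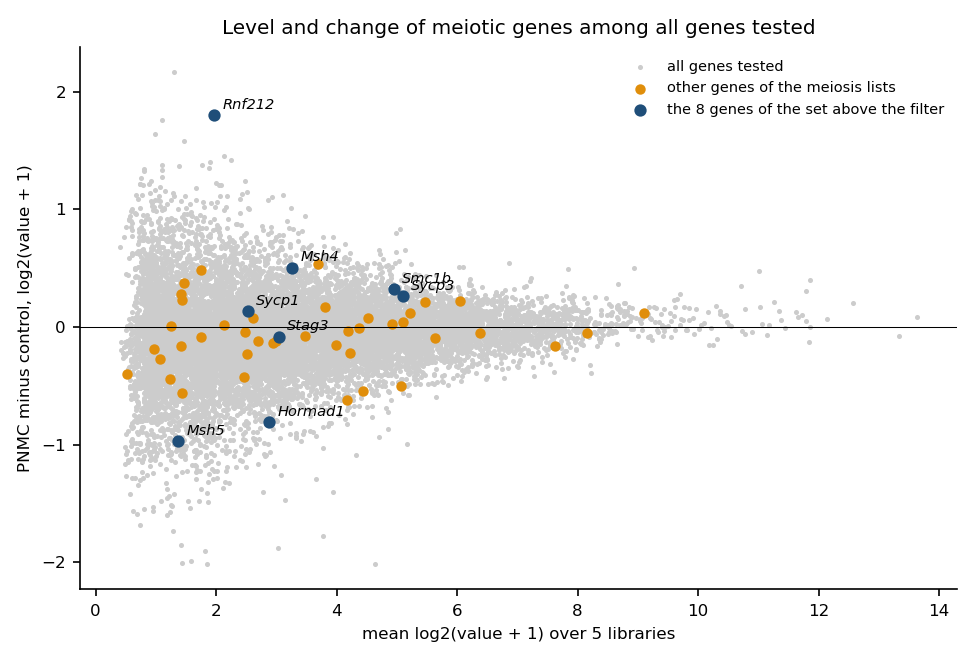
Mean level (x axis, log2(value + 1) over 5 libraries) and difference between PNMC and control (y axis, same scale) for all genes tested in grey, 41 other genes of the meiosis lists in orange and the 8 tested members of the set in blue. Rnf212, at 1.80, lies near the upper edge of the grey points, and the orange points lie within them.

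The genes of the meiosis lists with the highest deposited values were not among the 10. Syce2, a central element protein of the synaptonemal complex, was at 491 and 552 in controls and at 569, 572 and 557 after PNMC. All PNMC values lay above both controls by a small margin, a difference of 0.12 (SE 0.104). Swi5 and Sfr1, partners in a complex that aids strand exchange, ranged from 266 to 320 and from 177 to 234, with overlapping groups. An exon of Swi5 overlaps one of Golga2 on the opposite strand, whose values ranged from 30.6 to 33.0. The other synaptonemal complex genes with a mean of at least 5 were Tex12, a central element protein (28.7 to 44.1), Sycp2l, an oocyte relative of Sycp2 (18.7 to 25.2), and Sycp2. No gene of this list passed limma's adjusted threshold.

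Among cohesin and centromere genes, the shugoshins Sgo1 and Sgo2a, which protect cohesin at centromeres, ranged from 43.3 to 53.4 and from 23.3 to 35.7. Meikin, a meiotic kinetochore protein, was at 5.30 and 5.92 in controls and at 2.65, 7.25 and 2.93 after PNMC. None of these 3 separated the groups. Among axis and break-formation genes, Iho1 (listed as Ccdc36, 15.6 to 19.6) and Mei4 (8.48 to 12.9), both needed for programmed breaks, had overlapping groups. So did Trip13, the ATPase that removes HORMA proteins from axes (5.68 to 7.68), and Prdm9, which marks recombination hotspots (3.14 to 6.68).

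In strand exchange, Hsf2bp ranged from 48.0 to 85.5, Brme1 (listed as 4930432K21Rik) from 14.5 to 26.7, Rad51ap1 from 13.8 to 20.9 and Mnd1 from 1.89 to 7.94. Psmc3ip, the HOP2 partner of MND1, had the smallest p of this list, at 33.0 and 20.7 in controls and at 19.9, 21.0 and 13.1 after PNMC. Its groups overlapped through PNMC library 2 and control library 2, and the difference was -0.54 (SE 0.261). In crossover formation, Mus81, a structure-specific nuclease subunit, was at 21.1 and 23.5 in controls and at 12.8, 13.0 and 17.2 after PNMC, all below both controls (difference -0.62, SE 0.227, limma adjusted p = 0.967). Tex11 ranged from 26.8 to 43.2, Ccnb1ip1 (HEI10) from 12.6 to 16.9 and the exonuclease gene Exo1 from 10.8 to 14.8, with overlapping groups.

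Genes that tie telomeres to the nuclear envelope in meiosis included Sun1, which is also widely expressed outside the germline. Sun1 was at 46.7 and 34.5 in controls and at 23.0, 32.7 and 29.8 after PNMC, all below both controls (difference -0.50, SE 0.214, limma adjusted p = 0.967). Terb1 ranged from 7.19 to 15.4 and Terb2 from 4.78 to 5.99. Among genes of meiotic entry, the RNA-binding protein gene Dazl ranged from 74.0 to 94.2 with overlapping groups. Meiosin (listed as Gm4969) had the smallest p there, with a difference of 0.48 (SE 0.400), and Stra8, its partner in starting meiosis, was listed above 0 only in PNMC library 2, at 0.459.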

How the data were processed

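RNA-seq was run on 2-cell mouse embryos in 2 control and 3 PNMC libraries. Per the labels' protocols, these were Smart-seq2 libraries of TRIzol-extracted RNA, a method without strand information. DESeq2 1.16.1, HTSeq, HISAT2 2.0.5 and Trimmomatic, with GRCm39 as the build, are listed per the submitters' processing notes, without roles. The authors deposited 1 table of a normalised signal per gene symbol. Its unit and annotation, and the tool behind it, are not stated in the labels or the file. The values are fractional and sum to between 446010 and 454548 per library, and the lowest positive values (1e-06 to 1.3e-05) showed no step of 1 read, so no depth, count test or counting interval is given.

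Genes that reached 1 in 2 or more libraries (12734) were compared on log2(value + 1) with limma 3.58.1 in R 4.3.3, with a mean-variance trend, robust variances and no covariate, and Benjamini-Hochberg adjustment over all of them. The test was written for counts or normalised values, and the second form applied. Fold changes on this scale understate changes of low genes. Alternatives were another pseudocount, 2 other filters, 2 scalings, plain variances, a replicate block and each library left out. The members, lists and motifs were chosen with earlier results of these data known. Genes outside the set were named by a rule: those of each meiosis list with a mean of at least 5 or the smallest p, the paralogs, and the 5 genes most alike to Rnf212 and to the highest member. Some genes that the rule names are not reported here. Chpt1, Golga2, Meikin, Stra8 and the genes listed at 0 were named after their values were seen. Promoters are from RefSeq, build GRCm38.p6, 1 per symbol. Exon overlaps are from GENCODE release M21 and give names only. Python 3.11.15 was used for the rest.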

Additional observations from a re-analysis of the deposited data

How the results depend on the processing

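Across 12 alternatives the direction of 5 members' differences had no exception in any alternative that gave a value (Rnf212, Smc1b, Hormad1, Msh4 and Sycp3), and the same held for Msh5 in the 11 that did. In all, 92 of 95 recomputed differences kept their sign and their side of the adjusted threshold. That tally overstates the stability. The 2 other filters and plain variances leave a gene's difference as it is, so its sign could not change there. The replicate block gives the same differences as leaving out PNMC library 3. With 1 library left out, the difference of Stag3 ranged from -0.17 to 0.00817, turning positive without PNMC library 2. That of Sycp1 ranged from -0.15 to 0.42, turning negative without control library 2 and, at -0.05, without PNMC library 2. Msh5 gave no value under the filter of at least 5 in 2 libraries. With 1 library left out, the count of genes past limma's adjusted threshold ranged from 0 to 1, the 1 being Gm13103 without PNMC library 1, and the count at an unadjusted p under 0.05 from 509 to 743. With the filter of at least 5 that count was 326, of 7818 genes tested. Where a control is left out, limma assumes that the lone control varies like the PNMC libraries.

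Groups share replicate numbers 1 and 2, but nothing in the labels ties a control to a PNMC library of the same number. The correlation of same-numbered deviations from the group means was -0.06 and -0.04, and that of different-numbered ones ran from -0.01 to 0.06. With 2 controls, each PNMC library has the same correlation with both, of opposite sign, so these are not separate checks. The replicate block left 0 genes past the adjusted threshold and 544 at an unadjusted p under 0.05, and takes PNMC library 3 out of the comparison. The difference of Rnf212 was 1.82 with the block. DESeq2 was not run, since the table holds no counts. The unknown depth limits every value near 0, above all those of Rec8 and Dmc1.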

Other observations

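Some meiotic genes were high in a single library. They were picked out after their values were seen, so they are given as values only. Prr19, a crossover factor, was at 7.23 in control library 2 and between 0.334 and 0.946 in the other 4 libraries. Six6os1 (listed as 4930447C04Rik), a central element gene, was at 4.04 in control library 2 and at 0.570 in control library 1, with 0.657, 1.25 and 1.40 after PNMC. Meiosin was at 5.15 in PNMC library 2 and at most 2.19 elsewhere. Dmc1 and Rec8 both had their highest value in PNMC library 1.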
